A study of Mus musculus with 3 samples.

Results

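In 3 sections of regenerating mouse tibialis anterior (TA) muscle, transcripts of B cells, T cells, NK cells and neutrophils were a small share of almost every spot, and the spots in which a deconvolution gave them at least 0.01 of the transcripts are described here. The spots were selected on measured values. For each Visium spot, a small barcoded area that captures RNA from the cells above it, the deposited value theta is the estimated fraction of the transcripts that came from each of 27 cell types. Each of the 4 types was taken on its own, and spots with a theta of at least 0.01 were set against the other spots of the same section. This gave 105 B cell spots, 274 T cell spots, 214 NK cell spots and 117 neutrophil spots. Together they were 419 of 2758 spots, since a spot could belong to several sets.

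The muscles came from female C57BL/6J mice aged 5 months. All had been injected with notexin, a snake venom toxin that destroys myofibers, and were collected 2, 5 or 7 days post-injury (dpi). Each time point was 1 section of 1 muscle (859, 933 and 966 spots), and no uninjured section was analysed here, so animal, section and time point cannot be told apart and no difference between time points was tested. Spots of a section are not replicates, and the 95% Clopper-Pearson intervals below cover counting error only. A theta is a share of RNA, so fewer cells of a type and less RNA per cell cannot be told apart.

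Neutrophils are granulocytes that enter injured muscle early, clear debris and are followed by monocytes, which mature into macrophages. T cells and NK cells are lymphocytes that arrive in smaller numbers. NK cells kill stressed cells and release interferon gamma, and T cells include helper, cytotoxic and regulatory cells, the last of which are known to aid muscle repair. B cells, the antibody-forming lymphocytes, are scarce in muscle. The names are those of the authors' single-cell reference. The spot tables hold no values per gene, so Cd3e (T cells), Nkg7 (NK cells), Cd79a (B cells) and S100a8 (neutrophils) were not analysed here, and the identity of the 4 types was not checked against their markers.

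The 4 sets were small fractions of tissue that was mostly other cells. At 2, 5 and 7 dpi the summed mean theta of the 11 immune types was 0.173, 0.0555 and 0.0632, of which 0.145, 0.0412 and 0.0473 came from the 6 monocyte and macrophage types. Over all 27 types, the theta values reaching 0.01 were 31.9% at 2 dpi, 21.6% at 5 dpi and 25.0% at 7 dpi. All 12 shares of the 4 types were under these values (0.7503% to 24.3%). Just inside the threshold, the lowest member theta of each type and section lay between 0.01001 and 0.0106, and the highest theta outside it between 0.00969 and 0.00999, so the sets had no gap at their edge.

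A low theta has to be read against the depth of its spot. No spot had a theta of exactly 0 for any of the 4 types, and the lowest of the 27 values of a spot, its floor, fell as the count of unique transcripts (UMIs) rose. Multiplied by the UMI count over all genes, the floor had a median of 9.92, 9.11 and 10.2 at 2, 5 and 7 dpi. This product is not a count of UMIs, since the deconvolution used only a part of the genes. The sections differed in depth, with median UMI counts of 5786, 11221 and 15135 per spot, and the median floor was 0.00190, 0.000889 and 0.000752. The floor itself never reached 0.01 (highest, 0.00918). A spot at the threshold of 0.01 lies further above its floor the deeper it is, so ratios to the floor partly follow depth. Where a comparison could follow depth, it is therefore also given for spots with 5000 to 10000 UMIs, of which there were 305, 255 and 163.

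**Figure D1:**
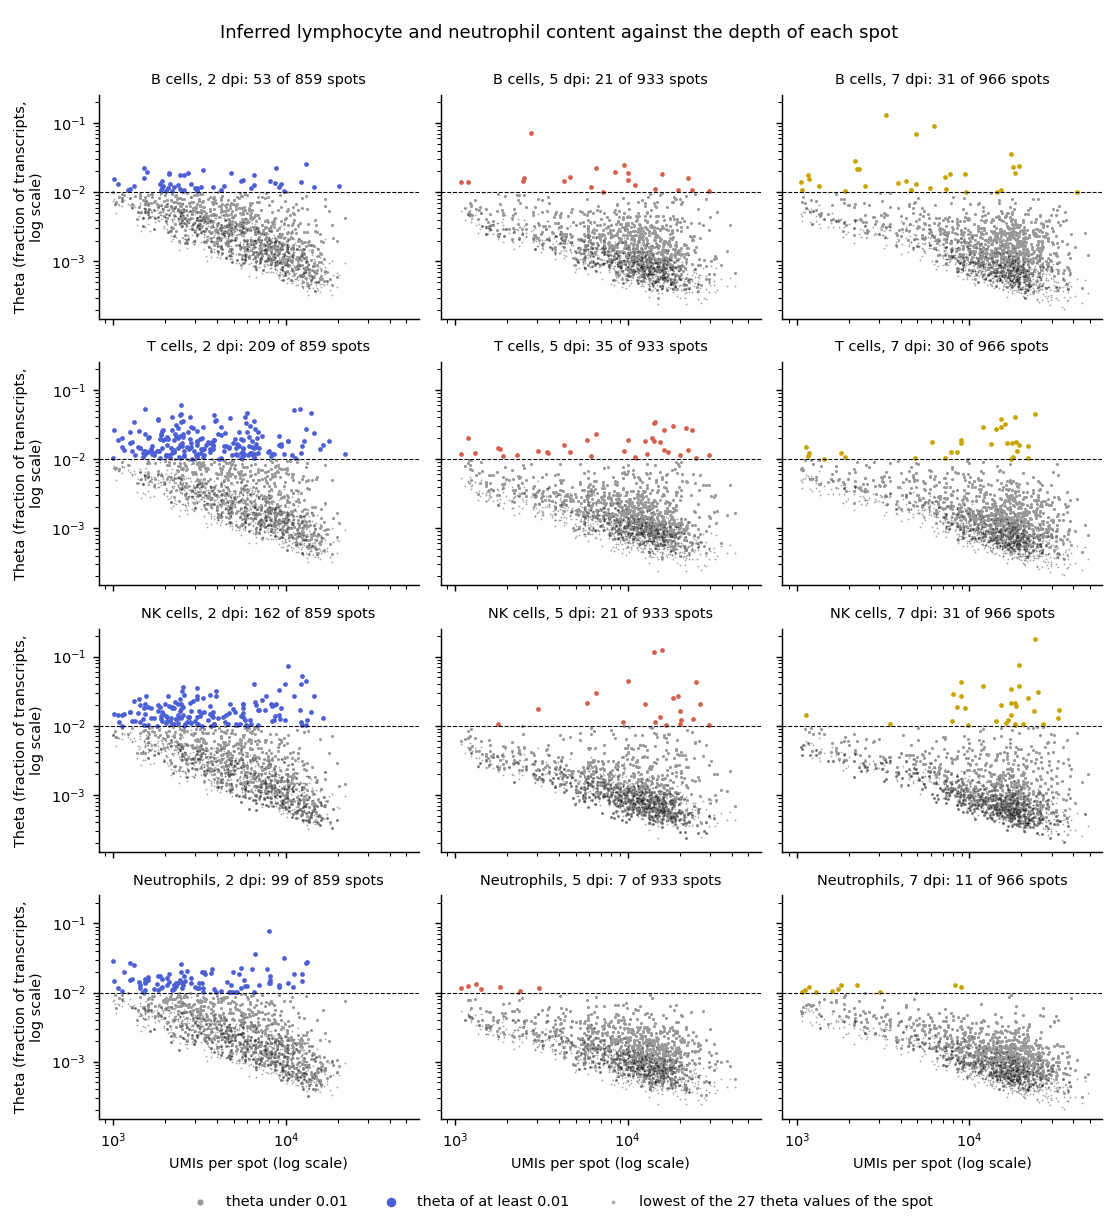
Theta of each of the 4 types (vertical axis, fraction of transcripts, log scale) against UMIs per spot (horizontal axis, log scale), with 1 point per spot and 1 panel per type and section. Large colored points are spots with a theta of at least 0.01, gray points are the other spots, and the smallest dark points are the lowest of the 27 theta values of each spot. At 2 dpi the colored points crowd toward the left of the panels, and the T cell panel holds 209 of them. At 5 and 7 dpi the colored NK cell points lie mostly at 10000 UMIs and more, as do most spots of these sections. The highest of these NK cell points are at 0.125 and 0.181.

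T cells gave the largest set. At 2 dpi 209 of 859 spots (24.3%, interval 21.5 to 27.3) were T cell spots, against 35 of 933 (3.75%, 2.63 to 5.18) at 5 dpi and 30 of 966 (3.11%, 2.11 to 4.404) at 7 dpi. The theta of T cells ran from 0.000423 through a median of 0.00451 to 0.0601 at 2 dpi, from 0.000375 through 0.00178 to 0.0343 at 5 dpi, and from 0.000360 through 0.00163 to 0.0442 at 7 dpi. The sections overlapped over most of their range, and they differed in how many spots lay in the upper part: a theta of 0.02 was reached in 62 spots at 2 dpi, in 8 at 5 dpi and in 7 at 7 dpi. The mean theta was 2.57 times higher at 2 dpi than at 5 dpi and 2.68 times higher than at 7 dpi, and in spots of 5000 to 10000 UMIs the ratio to 7 dpi was 1.69.

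T cells lay above the floor in every T cell spot by the threshold itself, since no floor reached 0.01. Their theta was at the median 4.53 times the lowest theta of the spot at 2 dpi, 10.3 times at 5 dpi and 10.6 times at 7 dpi. Of the 209 spots at 2 dpi, 202 held at least 2 times the floor. T cells were seldom the lowest type of any spot, in 16, 14 and 17 spots of the 3 sections. The 2 dpi set leaned to shallow spots, with a median of 3218 UMIs against 6767 in the other spots. By depth, T cells reached 0.01 in 46 of 72 spots under 2000 UMIs (63.9%) and in 16 of 180 spots with 10000 UMIs and more (8.89%). In spots of 5000 to 10000 UMIs the share was 17.05% (52 of 305, interval 13.0 to 21.7) at 2 dpi, 1.57% (4 of 255, 0.429 to 3.97) at 5 dpi and 3.68% (6 of 163, 1.36 to 7.84) at 7 dpi. The share was thus highest at 2 dpi at like depth, but the intervals do not test a difference between time points.

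At 2 dpi T cell spots were rich in all monocyte and macrophage types. All 6 had a mean theta at least 2 times that of the other spots, as had 13 of the 26 other types (50.0%). Cxcl10+ monocytes, which carry an interferon-response chemokine, had a mean theta of 0.0417 against 0.00974 (4.29 times), M1 macrophages, the pro-inflammatory state, 0.0340 against 0.00895 (3.80 times), and patrolling monocytes 0.165 against 0.05003 (3.296 times). Patrolling monocytes were the largest of the 6 in amount, and 93.3% of the T cell spots (89.0 to 96.3) held at least 0.01 of them against 33.5% of the other spots. The median ratio was 3.11 over these 6 types and 2.07 over all 26. Between 5000 and 10000 UMIs the ratios were 5.70 for Cxcl10+ monocytes, 4.33 for M1 macrophages and 3.89 for patrolling monocytes.

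The other side of these spots was less myofiber RNA. Summed myonuclei, the nuclei of mature type IIb and IIx fibers, made up a mean of 0.418 of T cell spots and 0.762 of the other spots at 2 dpi. Since the 27 values of a spot sum to 1, the total of the types outside the fiber is higher where the fiber share is lower. After rescaling without myonuclei and without the 4 types, the summed monocytes and macrophages were still 1.83 times higher in the T cell spots, down from 3.27 times. By the naming rule, activated muscle stem cells (MuSCs; 0.0240 against 0.00830), committed myoblasts (0.0204 against 0.00764) and stem-like endothelial cells (0.0136 against 0.00613) were the further types above 2 times at 2 dpi.

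The leading companions of T cells were different types in the later sections. At 5 dpi 14 of 26 types (53.8%) and at 7 dpi 12 of 26 (46.2%) had a mean theta at least 2 times higher in the T cell spots. NK cells were the most raised of them at 7 dpi (9.86 times), where the highest spot of both types was the same one. At 5 dpi NK cells came next after dendritic cells. Dendritic cells, which present antigen to T cells, led the myeloid types, with a mean theta of 0.0248 against 0.00345 at 5 dpi (7.20 times) and 0.0358 against 0.00458 at 7 dpi (7.83 times). At 5 dpi Cx3cr1-hi M2 macrophages, a repair-phase state, followed at 5.61 times and Cxcl10+ monocytes at 4.55 times, and at 7 dpi Cxcl10+ monocytes were at 3.596 and Cx3cr1-hi M2 macrophages at 3.48 times. The dendritic cell means were drawn up by few spots: 34.3% and 33.3% of T cell spots held at least 0.01 dendritic cells, the ratios of medians were 2.87 and 3.001, and without the 2 spots highest in T cells the 7 dpi ratio was 4.28. After rescaling without myonuclei and the 4 types, the dendritic cell ratios were 2.77 and 3.40.

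**Figure D2:**
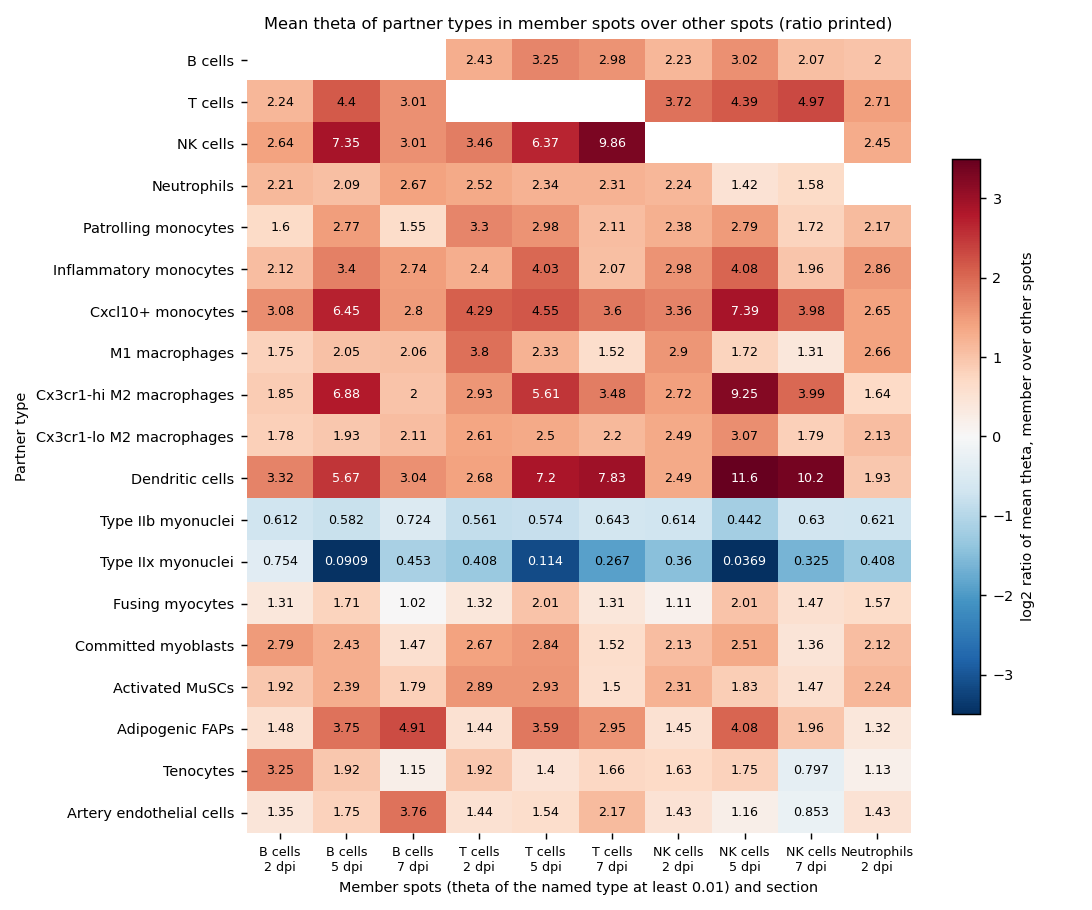
Mean theta of partner types (rows) in the spots of each of the 4 types over the other spots of the same section (columns), with the ratio printed in each cell and its log2 as the color. Neutrophil spots are shown at 2 dpi only, where there were 99 of them, and the largest ratios are those of dendritic cells in NK cell spots at 5 dpi (11.6) and 7 dpi (10.2).

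NK cells had the highest single values of the lymphocytes. Their spots numbered 162 of 859 (18.9%, interval 16.3 to 21.6) at 2 dpi, 21 of 933 (2.25%, 1.40 to 3.42) at 5 dpi and 31 of 966 (3.21%, 2.19 to 4.52) at 7 dpi. Theta ran from 0.000328 through a median of 0.00335 to 0.0743 at 2 dpi, from 0.000240 through 0.00120 to 0.125 at 5 dpi, and from 0.000208 through 0.00114 to 0.181 at 7 dpi. The medians were lower and the highest values higher in the later sections. In 134, 350 and 369 spots of the 3 sections NK cells were the lowest of the 27 types, which was 15.6%, 37.5% and 38.2% of spots. At 5 and 7 dpi the typical spot held NK cells near the floor, at a median of 1.14 and 1.17 times it.

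NK cell spots lay further above the floor in the later, deeper sections. Their theta was at the median 4.17 times the floor at 2 dpi, 19 times at 5 dpi and 19.5 times at 7 dpi. The floor is lower in deep spots while the threshold is fixed, and how far this rise follows depth was not tested. At 5000 to 10000 UMIs the medians were 6.92, 13.7 (3 spots) and 10.2 times (7 spots). The median depth of NK cell spots was 3058 UMIs against 6427 in the other spots at 2 dpi. It was 15827 against 11078 at 5 dpi and 17384 against 15017 at 7 dpi. Of the 21 and 31 spots at 5 and 7 dpi, 16 and 22 had 10000 UMIs and more. At 5000 to 10000 UMIs the shares were 12.1% (37 of 305, interval 8.69 to 16.3), 1.18% (3 of 255, 0.243 to 3.40) and 4.29% (7 of 163, 1.74 to 8.65). Each of these intervals covers counting error within 1 section, so they do not test a difference between time points.

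Dendritic cells were the type most raised in the late NK cell spots. Their mean theta was 0.0399 against 0.00343 in the other spots at 5 dpi (11.6 times) and 0.0437 against 0.00429 at 7 dpi (10.2 times). The means rested in part on single spots. Leaving out the 2 spots highest in NK cells gave 6.10 and 5.55 times, the ratios of medians were 2.67 and 4.66, and the 7 NK cell spots of 5000 to 10000 UMIs at 7 dpi gave 2.85. After rescaling without myonuclei and the 4 types, the ratios of means were 3.72 and 4.57. Cx3cr1-hi M2 macrophages had a mean theta of 0.113 against 0.0122 at 5 dpi (9.25 times) and 0.0657 against 0.0164 at 7 dpi (3.99 times), and Cxcl10+ monocytes were 7.39 and 3.98 times higher. At 5 dpi 12 of 26 types (46.2%) and at 7 dpi 6 of 26 (23.1%) were at least 2 times higher in the NK cell spots, so at 7 dpi the raised types were few: dendritic cells, T cells, Cx3cr1-hi M2 macrophages, Cxcl10+ monocytes, vein endothelial cells and B cells.

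The 2 spots with the most NK cells at 5 dpi and at 7 dpi had summed myonuclei of 0.149, 0.123, 0.0825 and 0.148. The highest at 7 dpi had a theta of 0.181 for NK cells, 0.391 for dendritic cells, 0.128 for Cxcl10+ monocytes and 0.0442 for T cells at 23973 UMIs, and it was also the highest T cell spot of that section. The next at 7 dpi held 0.0749 NK cells with 0.273 dendritic cells and 0.214 Cx3cr1-hi M2 macrophages. At 5 dpi the highest held 0.125 NK cells with 0.195 Cx3cr1-hi M2 macrophages and 0.170 Cxcl10+ monocytes, and the next 0.115 NK cells with 0.373 dendritic cells. At 2 dpi the highest NK cell spots carried monocytes instead: 0.0743 NK cells with 0.380 patrolling monocytes, and 0.0531 NK cells with 0.475 inflammatory monocytes. Dendritic cells in those 2 spots were at 0.00273 and 0.00492, and summed myonuclei at 0.311 and 0.335.

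At 2 dpi the companions of NK cells were those of T cells, and 121 spots belonged to both sets. All 6 monocyte and macrophage types were at least 2 times higher, within 13 of 26 types (50.0%). Cxcl10+ monocytes were 3.36 times higher (mean theta 0.0407 against 0.0121), inflammatory monocytes 2.98 times (0.0221 against 0.00741) and M1 macrophages 2.90 times (0.0321 against 0.0111). Dendritic cells were 2.49 times higher, and 1.18 times after rescaling without myonuclei and the 4 types. Summed monocytes and macrophages were 2.61 times higher, and 1.69 times after the same rescaling. Activated MuSCs, committed myoblasts and stem-like endothelial cells, at 2.31, 2.13 and 2.08 times, were the further types named.

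**Figure D3:**
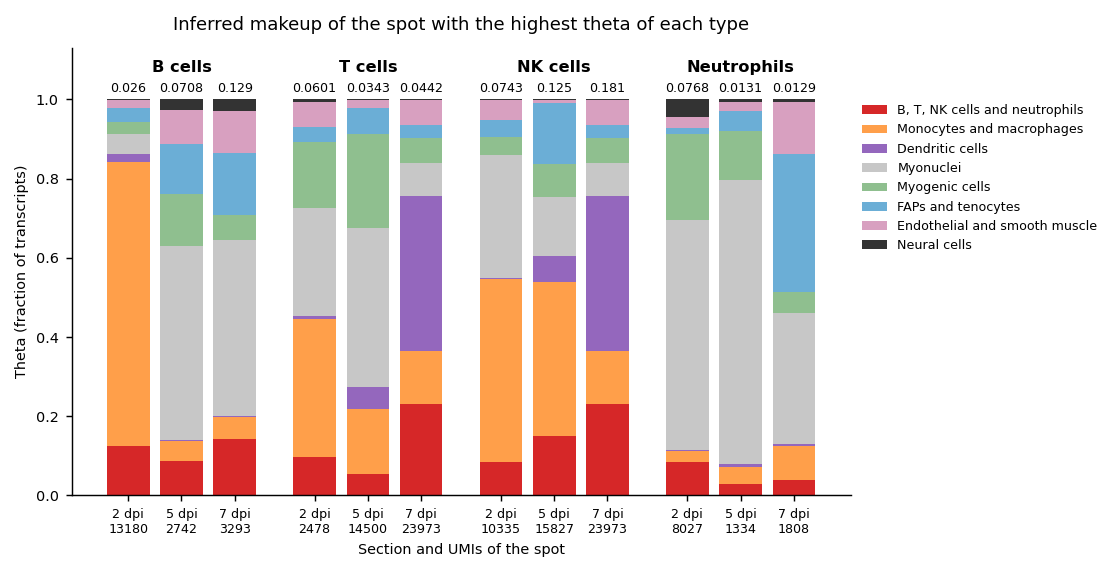
Inferred makeup of the spot with the highest theta of each type in each section, as stacked bars of theta from 0 to 1, with the theta of the type printed above the bar and the UMIs of the spot below it. Dendritic cells (purple) fill 0.391 of the highest NK cell spot at 7 dpi, monocytes and macrophages (orange) 0.717 of the highest B cell spot at 2 dpi, and myonuclei (gray) 0.582 of the highest neutrophil spot at 2 dpi.

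B cells differed least between sections. B cell spots were 53 of 859 (6.17%, interval 4.66 to 7.99) at 2 dpi, 21 of 933 (2.25%, 1.40 to 3.42) at 5 dpi and 31 of 966 (3.21%, 2.19 to 4.52) at 7 dpi. Theta ran from 0.000376 through a median of 0.00312 to 0.0260 at 2 dpi, from 0.000291 through 0.00174 to 0.0708 at 5 dpi, and from 0.000293 through 0.00181 to 0.129 at 7 dpi. The highest values rose from section to section while the medians did not. Spots with at least 0.02 numbered 4, 3 and 9, and spots with at least 0.05 numbered 0, 1 and 3. The B cell share was 1.92 times higher at 2 dpi than at 7 dpi over all spots, but 0.840 times between 5000 and 10000 UMIs (11 of 305 against 7 of 163) and 0.500 times at a minimum theta of 0.02, so its direction depended on depth and threshold.

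The 2 dpi B cells lay close to the floor. Their theta was at the median 3.17 times the floor of the spot, against 8.57 times at 5 dpi and 6.49 times at 7 dpi, and 43 of 53 spots held at least 2 times the floor. At 5000 to 10000 UMIs the medians were 5.94 (11 spots), 8.57 (5 spots) and 8.07 times (7 spots). B cells were the lowest type in 92, 86 and 54 spots. The B cell spots were shallow at 2 dpi (median 2730 UMIs against 5892) and at 7 dpi (4878 against 15329), and their share at 7 dpi was 14.9% (7 of 47) at 3000 to 5000 UMIs and 1.01% (7 of 696) at 10000 UMIs and more.

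At 2 dpi B cell spots were raised in fewer of the monocyte and macrophage types. In them 2 of the 6 types, Cxcl10+ monocytes (3.08 times) and inflammatory monocytes (2.12 times), had a mean theta at least 2 times higher, within 8 of 26 types (30.8%). The median ratio of the 6 was 1.82, close to 1.66 over all 26. Dendritic cells were the most raised type (0.0168 against 0.00507, 3.32 times), and in the 11 B cell spots of 5000 to 10000 UMIs they were 7.20 times higher, and 1.57 times over all spots after rescaling without myonuclei and the 4 types. Tenocytes, the cells of tendon, came next (0.0339 against 0.0104, 3.25 times), but the medians were 0.00918 and 0.00373. Committed myoblasts followed at 2.79 times. Summed monocytes and macrophages were 1.85 times higher, and 1.34 times after the same rescaling.

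Later B cell spots had other neighbors. At 5 dpi 12 of 26 types (46.2%) and at 7 dpi 14 of 26 (53.8%) were at least 2 times higher in mean theta. NK cells (7.35 times), Cx3cr1-hi M2 macrophages (6.88 times) and Cxcl10+ monocytes (6.45 times) led at 5 dpi. The NK cell mean rested on few spots. Of the 21 B cell spots 5 (23.8%) were NK cell spots, against 1.75% of the spots without B cells. Among the 5 was the highest NK cell spot of the section, with 0.125 NK cells and 0.0184 B cells. At 7 dpi the types most raised were adipogenic FAPs, fibro-adipogenic progenitors inclined to form fat, with 0.0677 against 0.0138 (4.91 times), and artery endothelial cells, with 0.0162 against 0.00431 (3.76 times). Both were chosen after their values were seen, and neither was particular to B cell spots. Adipogenic FAPs were also at least 2 times higher in T cell spots at 5 and 7 dpi and in NK cell spots at 5 dpi. Artery endothelial cells were so in T cell spots at 7 dpi. In the B cell spots at 7 dpi the ratio of medians of adipogenic FAPs was 5.28. Without the 2 spots of highest B cell theta their ratio of means was 4.28. After rescaling without myonuclei and the 4 types it was 2.27.

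The 3 spots with the most B cells in the 7 dpi section shared this makeup. They held 0.129, 0.0919 and 0.0706 B cells with 0.140, 0.248 and 0.429 adipogenic FAPs, at 3293, 6231 and 4878 UMIs, and B cells had rank 3 among the 27 types in each. Artery endothelial cells were at 0.0520, 0.0914 and 0.0699. T cells in the same spots were at 0.00647, 0.00512 and 0.00869 and NK cells at 0.00296, 0.00216 and 0.00310, so none of the 3 was a T cell or NK cell spot. The highest B cell spot at 5 dpi, of like theta (0.0708), held 0.0805 adipogenic FAPs but 0.00702 artery endothelial cells at 2742 UMIs. The highest B cell spot at 2 dpi was of another kind, with 0.0260 B cells beside 0.435 patrolling monocytes, 0.137 Cxcl10+ monocytes and 0.101 M1 macrophages, and it belonged to all 4 sets.

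Neutrophils seldom reached the threshold after 2 dpi. Neutrophil spots were 99 of 859 (11.5%, interval 9.47 to 13.8) at 2 dpi, 7 of 933 (0.7503%, 0.302 to 1.54) at 5 dpi and 11 of 966 (1.14%, 0.570 to 2.03) at 7 dpi. Theta ran from 0.000322 through a median of 0.00299 to 0.0768 at 2 dpi, from 0.000326 through 0.00162 to 0.0131 at 5 dpi, and from 0.000310 through 0.00139 to 0.0129 at 7 dpi. At 2 dpi 15 spots held at least 0.02, and no spot of the later sections did. In the middle depth class, 5000 to 10000 UMIs, the counts were 21 of 305 (6.89%, 4.31 to 10.3), 0 of 255, which allows a share of up to 1.18% by a limit of 3 counts (Clopper-Pearson upper bound 1.44%), and 2 of 163 (1.23%, 0.149 to 4.36).

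The late neutrophil spots were very shallow. Their median depth was 1410 UMIs at 5 dpi and 1733 at 7 dpi, against 11306 and 15224 in the other spots. Under 2000 UMIs lay 5 of the 7 and 7 of the 11. Their theta was at the median 3.36 and 2.90 times the floor, near the 3.53 times at 2 dpi and well under the ratios of the deeper T cell and NK cell spots in the same sections. At 5000 to 10000 UMIs the median was 6.59 times at 2 dpi and, over 2 spots, 6.83 times at 7 dpi. At 2 dpi, too, neutrophil spots were shallow (2837 UMIs against 6118), and the share fell from 38.9% (28 of 72) under 2000 UMIs to 3.89% (7 of 180) at 10000 UMIs and more.

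At 2 dpi 5 of the 6 monocyte and macrophage types, within 10 of 26 types (38.5%), were at least 2 times higher in neutrophil spots. Inflammatory monocytes, the circulating monocytes that enter injured tissue, were the most raised type of all 26 (mean theta 0.0240 against 0.00838, 2.86 times), followed by T cells (2.71 times), M1 macrophages (2.66 times) and Cxcl10+ monocytes (2.65 times). Cx3cr1-hi M2 macrophages were at 1.64 times, 1.03 times between 5000 and 10000 UMIs and 0.895 times after rescaling, and dendritic cells at 1.93 times. Activated, committed and quiescent myogenic cells were the further types named: activated MuSCs 2.24 times, quiescent MuSCs 2.16 times and committed myoblasts 2.12 times. With 7 and 11 spots, companions at 5 and 7 dpi were not called.

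The 2 spots with the most neutrophils held fewer monocytes and macrophages than the median neutrophil spot. The highest, at 2 dpi, held 0.0768 neutrophils with 0.576 type IIb myonuclei, 0.111 fusing myocytes and 0.0816 quiescent MuSCs at 8027 UMIs, and its summed monocytes and macrophages were at 0.0276. The next held 0.0359 neutrophils with 0.606 type IIb myonuclei and 0.112 summed monocytes and macrophages. The median neutrophil spot of that section held 0.268 summed monocytes and macrophages and the median of the other spots 0.0391.

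**Figure D4:**
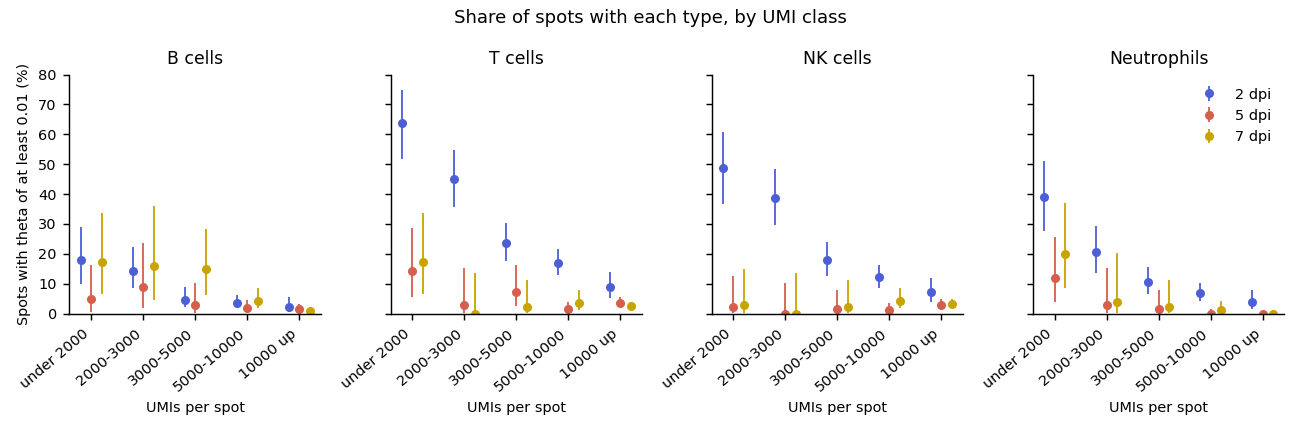
Share of spots with a theta of at least 0.01 (vertical axis, percent of the spots of a depth class) in 5 classes of UMIs per spot (horizontal axis) for each type and section. Bars are 95% Clopper-Pearson intervals over spots, and the 2 dpi T cell share falls from 63.9% under 2000 UMIs to 8.89% at 10000 UMIs and more, while B cell intervals of the 3 sections overlap in every class.

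A spot could hold several of the 4 types. At 2 dpi 575 spots held none of them, 123 held 1, 99 held 2, 46 held 3 and 16 held all 4. The median UMI count of these classes was 7032, 4966, 3262, 2391 and 2143, so spots with more of the types were shallower. T cells and NK cells overlapped most, in 121 spots, which were 57.9% of T cell spots and 74.7% of NK cell spots, and 6.31% of the spots without T cells were NK cell spots. T cells were in 77.4% of B cell spots (41 of 53, or 19.6% of T cell spots) and 20.8% of the spots without B cells. They were in 66.7% of neutrophil spots (66 of 99, or 31.6% of T cell spots), and 5.08% of the spots without T cells were neutrophil spots. Between 5000 and 10000 UMIs 20 spots held both T cells and NK cells (38.5% of 52 and 54.1% of 37). At 5 dpi 21 spots held 2 types and 3 spots 3, and at 7 dpi 15 and 5. The T and NK cell overlap was then 11 spots (31.4% of T cell and 52.4% of NK cell spots) and 13 spots (43.3% and 41.9%), while 1.11% and 1.92% of the spots without T cells were NK cell spots. B cells were the sole type of the 4 in 22 of 31 spots at 7 dpi, against 8 of 53 at 2 dpi. This was not particular to B cells. The share of sole-type spots was also higher at 7 dpi than at 2 dpi for NK cells (58.1% against 20.4%), neutrophils (63.6% against 23.2%) and T cells (36.7% against 28.2%).

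Over all spots, the theta values of the 4 types rose with those of monocytes and macrophages. The 72 rank correlations (4 types, 6 partners, 3 sections), given as a description, ran from 0.248 to 0.865 with a median of 0.648. The highest was that of T cells with Cxcl10+ monocytes at 2 dpi and the lowest that of neutrophils with Cx3cr1-hi M2 macrophages at 7 dpi. Points of a section share 1 library, and their depth and myofiber share differ. Between 5000 and 10000 UMIs the range was 0.507 to 0.865 (median 0.675), and given the UMI count 0.383 to 0.822 (median 0.612). With theta rescaled without myonuclei it was -0.396 to 0.661 (median 0.308), with 9 of 72 below 0.

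The spots with these types also differed in transcripts that the deconvolution did not use, since mitochondrial and ribosomal protein genes were left out of its gene list. At 2 dpi the mitochondrial share had a median of 13.6% of UMIs in T cell spots and 32.7% in the other spots, and the ribosomal protein share 8.54% and 4.77%. Mature fibers are dense in mitochondria. At 5 dpi T cell spots had 7.72% against 24.5% mitochondrial and 14.1% against 6.28% ribosomal protein transcripts, and at 7 dpi 9.45% against 17.3% and 12.2% against 7.68%. In NK cell spots the mitochondrial medians were 13.9%, 6.69% and 9.15% at 2, 5 and 7 dpi, against 32.0%, 24.2% and 17.3%. B cell spots had 15.4%, 8.17% and 11.1%, and neutrophil spots 14.0% at 2 dpi against 30.9%. The exception was the 11 neutrophil spots at 7 dpi, with 17.4% mitochondrial transcripts against 16.9% and 8.05% ribosomal protein transcripts against 7.87%. Hemoglobin transcripts, which come from red blood cells, were detected in 13.2% of B cell spots and 28.3% of the deeper other spots at 2 dpi, with a median of 0 in both. This gap was not shared by all sets. T cell spots had 26.8% against 27.5% at 2 dpi and 60% against 92.6% at 7 dpi, and B cell spots 95.2% against 85.3% at 5 dpi.

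The mitochondrial and ribosomal protein differences stood at like depth. Between 5000 and 10000 UMIs at 2 dpi, T cell spots had 12.7% mitochondrial transcripts (quartiles 10.4 and 18.2) against 33.6% (25.9 and 37.5), and neutrophil spots 16.2% (11.2 and 19.8) against 32.5% (19.8 and 36.7). The spots of the 4 types also held more genes there: 2471 against 1844 for T cells, 2457 against 1872 for NK cells, 2599 against 1889 for B cells and 2403 against 1880 for neutrophils. Over all spots at 2 dpi the gene counts were lower in the same sets, 1458 against 1776 for T cells, where the UMI counts were lower too.

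**Figure D5:**
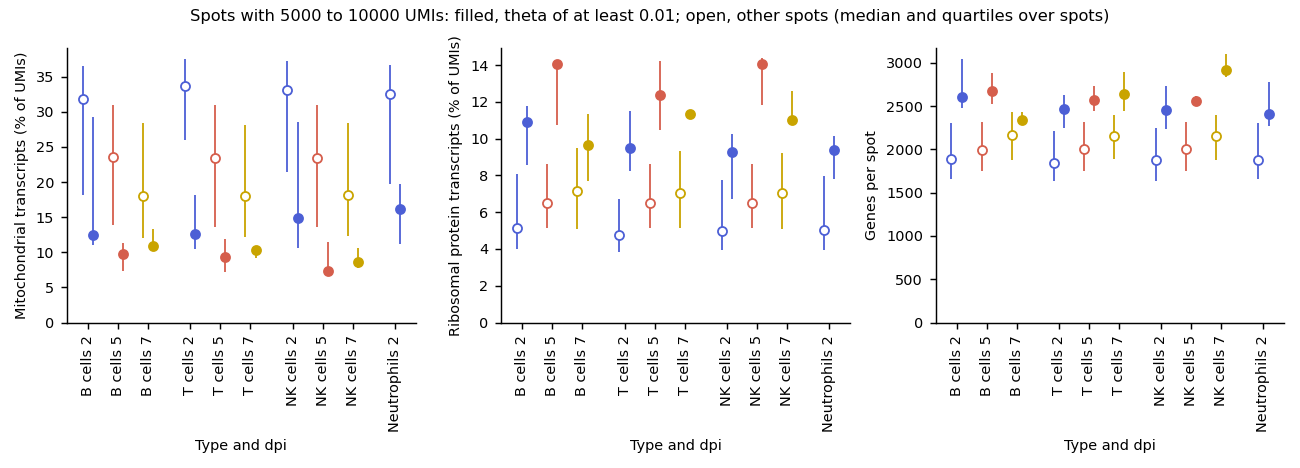
Mitochondrial transcripts and ribosomal protein transcripts (percent of UMIs) and genes per spot in spots with 5000 to 10000 UMIs, for each type and section with at least 3 spots of the type. Filled points are spots with a theta of at least 0.01, open points the other spots, and lines run from the lower to the upper quartile over spots. Filled points lie below the open ones for mitochondrial transcripts and above them for ribosomal protein transcripts and genes in every pair drawn, and some pairs rest on few spots (3 NK cell and 4 T cell spots at 5 dpi).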

How the data were processed

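The deposited tables held 1 line per Visium spot for 3 sections (1 per time point, grouped by the treatment in the labels). By the methods of the study, spots over tissue were picked by hand, reads were aligned to mm10 with spaceranger, and the authors inferred theta with BayesPrism from a single-cell reference (tools in the submitters' notes: Space Ranger 1.0, Seurat 3.2.1, Cell Ranger). The authors deposited UMI and gene counts per spot (1003 to 48442 UMIs), percent of UMIs from mitochondrial, hemoglobin and ribosomal protein genes, and theta as a fraction over 27 types, more than the methods describe. Spots of different sections share barcodes (568 to 739 per pair), since capture areas carry 1 barcode set. Image alignments, which hold positions without barcodes, were not used.

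From these files, member spots, shares with exact intervals (SciPy 1.17.1), ratios of means and rank correlations were computed with pandas 2.3.3. No test was run, as each time point has 1 section. Companions were called at 2 times or more in sets of at least 20 spots. Types were named if they were monocytes, macrophages, dendritic cells or myonuclei, or had at 2 dpi a mean theta of at least 0.01 in member spots and 2 times that in the others. Leading types of the highest spots, and other late companions, were chosen after their values were seen. The member types, lists and rules were chosen with earlier results of these data known. The code was tested on simulated spots. Alternatives changed the threshold, spot depth, rescaling and summary. Some were added after the data were seen (standardising to the UMI classes of 2 dpi, leaving out the 2 highest spots, summing the 6 monocyte and macrophage types, and adipogenic FAPs as a partner).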

Additional observations from a re-analysis of the deposited data

Results flagged for a closer look

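The depth and gene content of spots with a type went in opposite directions between sections in 4 measures, each given as the median in the spots of the type over the median in the other spots of the section. UMIs of NK cell spots were at 0.476 at 2 dpi, 1.43 at 5 dpi and 1.16 at 7 dpi. Genes of NK cell spots were at 0.809, 1.79 and 1.41 in the same order. Genes of T cell spots were at 0.821, 1.35 and 1.28. Genes of B cell spots were at 0.716, 1.21 and 0.658, so that 5 dpi stood apart from both other sections. Each section is 1 sample, and the differences between sections were not tested.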

How the results depend on the processing

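Section shares and means of T cells, NK cells and neutrophils stayed higher at 2 dpi than at 7 dpi in all alternatives run, and those of B cells did not. The B cell share at 2 dpi over 7 dpi was 1.92, but 0.500 at a minimum theta of 0.02, 0.840 between 5000 and 10000 UMIs, 0.803 with only the 10 highest types of a spot counted and 0.721 standardised to the UMI classes of 2 dpi. Its ratio of means was 1.41, but 0.915 between 5000 and 10000 UMIs and 0.957 with the floor subtracted. The T cell share ratio of 7.83 was 4.63 between 5000 and 10000 UMIs and 2.87 rescaled without myonuclei. The NK cell share ratio of 5.88 was 2.82 between 5000 and 10000 UMIs and 3.01 with 10 types. The neutrophil share ratio of 10.1 was 3.204 rescaled and 3.72 standardised to UMI classes. Ratios of means between 5000 and 10000 UMIs were 1.69 for T cells, 1.53 for NK cells and 1.70 for neutrophils (all spots, 2.68, 2.28 and 2.44), and the NK cell ratio of medians was 2.94. The causes were not tested.

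Summed monocytes and macrophages at 2 dpi stayed above 1 in all alternatives. For B cell spots (1.85) the ratio was 2.33 between 5000 and 10000 UMIs, 2.34 from 3000 UMIs, 3.45 at a minimum of 0.02, 5.11 by medians and 1.34 rescaled without myonuclei and the 4 types. For T cell spots (3.27) it was 2.42 at 0.02, 10.3 by medians and 1.83 rescaled. For NK cell spots (2.61) it was 8.72 by medians and 1.69 rescaled. For neutrophil spots (2.28) it was 1.64 at 0.02, 6.84 by medians and 1.56 rescaled. Of single companions, rescaling turned M1 macrophages in B cell spots at 5 dpi (0.986), T cell spots at 7 dpi (0.873, and 0.876 at a minimum of 0.02) and NK cell spots at 5 and 7 dpi (0.663 and 0.733), patrolling monocytes in NK cell spots at 7 dpi (0.971), and Cx3cr1-hi M2 macrophages and dendritic cells in neutrophil spots at 2 dpi (0.895 and 0.894).

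Rescaled without myonuclei, 9 rank correlations turned negative. With patrolling monocytes at 2 dpi they were -0.292 for B cells and -0.0789 for neutrophils. With Cx3cr1-hi M2 macrophages they were -0.0541 and -0.169 for T cells and -0.0124 and -0.0479 for NK cells at 5 and 7 dpi, -0.171 and -0.396 for neutrophils, and -0.190 for B cells at 7 dpi. Between 5000 and 10000 UMIs the difference of medians (member minus other spots) changed sign for genes at 2 dpi (710 for B cells, 627 for T cells, 585.5 for NK cells, 522.5 for neutrophils) and for B cells at 7 dpi (183), for UMIs (973 for B cells at 2 dpi, 307.5 for T cells at 7 dpi, -1155 for NK cells at 5 dpi) and for the hemoglobin percent (-0.0196 and -0.0202 for B cells at 5 and 7 dpi, 0.00175 for NK cells at 5 dpi).

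No ratio of shares was formed where a section had under 4 member spots, as at a minimum theta of 0.05 and, for neutrophils, at 0.02, between 5000 and 10000 UMIs and from 3000 UMIs. No paired analysis was possible because each time point has 1 section. Depth limits the low end: under 2000 UMIs the median floor was 0.00528 at 2 dpi.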
